A study of Homo sapiens with 12 samples.

Results

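The BCL2 family holds the proteins that decide whether the outer mitochondrial membrane is breached in apoptosis, and 10 of its genes were followed here: BCL2, BCL2L1, MCL1, BAK1, BAX, BID, BIK, BMF, BCL2L11 and BBC3. They were chosen by gene symbol, as the probe sets that the platform annotation pairs with 1 of these names, and each of the 10 had 1 probe set of its own. They are 10 of the 18377 genes tested. The cells were HT29, an established human colon adenocarcinoma line that carries a mutant p53. Untreated control cells, taken as 0 h, were compared with cells kept for 8, 24 or 48 h in 70 nM methotrexate (MTX), an antifolate that limits the supply of thymidylate and purines. Every group held 3 arrays, and the titles call the replicates biological.

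The family works as a balance between groups of proteins that share short BCL2 homology (BH) domains. The guardians BCL2, BCL-XL (from BCL2L1) and MCL1 keep the effectors BAX and BAK (from BAK1) inactive. The BH3-only proteins, which share only the BH3 domain with the rest, are made or activated under stress, and they occupy the guardians or activate the effectors directly. Oligomers of BAX and BAK then open the outer membrane and cytochrome c leaves the mitochondrion. In colon carcinoma cells, BCL-XL and MCL1 are known as the guardians on which survival most often depends.

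The deposited values are log2 ratios to the median of the 3 control arrays. They show differences between groups, and they hold no level, so neither the signal over background nor the presence of a line's defining markers could be read from them. No untreated array of 8, 24 or 48 h was used here, so drug and time in culture cannot be told apart. Likewise, fewer cells with a transcript and less of it per cell cannot be told apart in bulk RNA. One array, 48 h replicate 3, was unlike the others of its time. Its root mean square distance from them over all genes was 0.208 and 0.184, where all remaining pairs of replicates had 0.094 to 0.143, and its array weight was the lowest of the 12 (0.199). Results at 48 h are therefore given with and without it where it changes them. Of 9 epithelial cell markers, 0, 1 and 2 were called against control at 8, 24 and 48 h (limma, adjusted p under 0.05). The called ones were KRT20 at 24 and 48 h and CLDN4 at 48 h, all higher. At an unadjusted p under 0.05 the counts were 1, 2 and 3, with falls among them and no share of all genes given. EPCAM at 48 h and CLDN4 at 8 h, both at -0.13, were not called (adjusted p = 0.115 and 0.118). VIL1 at 24 h, at 0.22, was not called either (0.0740). With array weights CLDN4 at 8 h was called lower (-0.15, adjusted p = 0.0204). Of 7 fibroblast markers 0 were called by limma at any time (0, 1 and 0 at an unadjusted p under 0.05), and COL1A1 and COL3A1 were called at 48 h without replicate 1 of that group (0.23 each, adjusted p = 0.0246 and 0.0484), and 1 marker without replicate 3. Of 5 leukocyte markers only CD68, a lysosomal protein, was called, higher by 0.35, 0.85 and 1.08 at the 3 times (SE 0.06), while CD14 was at -0.05, -0.13 and 0.07. The part of these in the results was not tested.

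For 8 of the 10 genes RefSeq gives a stretch of sequence around a transcription start, and for 6 of these a window ends at the outermost start of the gene. The 250 bases before that start are shown for 4 genes that differed among the groups, in build GRCh38.p14, 5′ to 3′ along the gene's own strand. BMF and BCL2L1 had the largest differences among the 4 groups, BAX is the effector that rose, and BCL2L11 the BH3-only gene whose values came and went. The windows lie at chr15:40108880-40109129 (minus strand) for BMF, chr20:31723964-31724213 (minus strand) for BCL2L1, chr19:48954625-48954874 (plus strand) for BAX and chr2:111120664-111120913 (plus strand) for BCL2L11. Capitals mark every match, on either strand, to the motifs named after them.
BMF: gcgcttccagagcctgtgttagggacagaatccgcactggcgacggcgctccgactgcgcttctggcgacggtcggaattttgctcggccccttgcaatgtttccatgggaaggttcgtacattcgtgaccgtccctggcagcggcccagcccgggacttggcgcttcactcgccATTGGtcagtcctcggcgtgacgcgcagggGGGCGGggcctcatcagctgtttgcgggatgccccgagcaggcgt
BCL2L1: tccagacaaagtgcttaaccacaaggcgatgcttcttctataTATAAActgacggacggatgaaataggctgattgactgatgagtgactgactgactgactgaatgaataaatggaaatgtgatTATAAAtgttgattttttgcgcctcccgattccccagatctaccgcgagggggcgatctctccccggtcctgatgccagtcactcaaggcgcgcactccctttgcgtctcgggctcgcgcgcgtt
BAX: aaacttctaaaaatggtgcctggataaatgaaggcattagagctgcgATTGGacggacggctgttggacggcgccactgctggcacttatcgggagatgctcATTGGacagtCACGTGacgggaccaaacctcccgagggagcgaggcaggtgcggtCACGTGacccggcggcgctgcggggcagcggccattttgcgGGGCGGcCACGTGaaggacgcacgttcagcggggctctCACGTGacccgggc
BCL2L11: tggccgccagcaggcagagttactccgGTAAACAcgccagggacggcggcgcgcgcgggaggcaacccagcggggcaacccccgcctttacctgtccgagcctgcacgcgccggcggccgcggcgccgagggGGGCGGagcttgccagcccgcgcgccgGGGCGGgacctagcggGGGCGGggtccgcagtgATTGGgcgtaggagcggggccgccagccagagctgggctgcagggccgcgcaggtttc

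The BAX window held 4 copies of the E-box CACGTG, a sequence bound by MYC and related factors, and 6.34% of 35116 windows of this length in the table held at least 1. They start 138, 93, 45 and 14 bases before the transcription start. The BCL2L11 window held GTAAACA, which FOXO factors bind, 223 bases before the start (in 2.98% of windows), and 3 copies of the GC box GGGCGG (in 42.6%). BMF had 1 GC box and 1 CCAAT box (CCAAT, in 32.0%), both of which also occurred in the BAX and BCL2L11 windows, the CCAAT boxes all on the opposite strand. In BCL2L1 the matches were 2 copies of TATAAA (in 10.7%), 208 and 125 bases before the start. None of the E2F forms searched (TTTCGCGC, TTTGGCGC, TTTCCCGC and TTTGCCGC) was in the 4 windows, nor were the cAMP response element TGACGTCA, the AP-1 site TGACTCA, the ATF4-CHOP site TGATGCAAT or an interferon response element. These matches describe the letters of the windows and nothing about binding in these cells.

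Among the 4 groups, 6 of the 10 genes differed by limma's moderated F test at a Benjamini-Hochberg adjusted p under 0.05, where 38.8% of all genes did. BMF stood first among them (F = 84.5, rank 321 of 18377), followed by BCL2L1 (31.6, rank 1375), BID (17.0, rank 2755), MCL1 (14.9, rank 3128), BAX (10.1, rank 4393) and BCL2L11 (6.88, rank 5795). The other genes, BAK1 (adjusted p = 0.151), BCL2 (0.835), BBC3 (0.839) and BIK (0.951), did not pass the test. Against control, 5 of the 10 were called at 8 h, 3 higher and 2 lower, against 24.2% of all genes called (12.1% higher and 12% lower). At 24 h 3 were called, 2 higher and 1 lower, against 16.7% of all genes (8.69% and 8.02%). At 48 h 3 were called, again 2 higher and 1 lower, against 25.3% of all genes (13% and 12.3%). The share of the 10 genes at 48 h is near that of all genes. Across the 3 times the median absolute log2 fold change of the 10 genes was 0.23, 0.07 and 0.15, and over all genes it was 0.09, 0.08 and 0.09. The 3 comparisons share the same 3 control arrays.

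**Figure D1:**
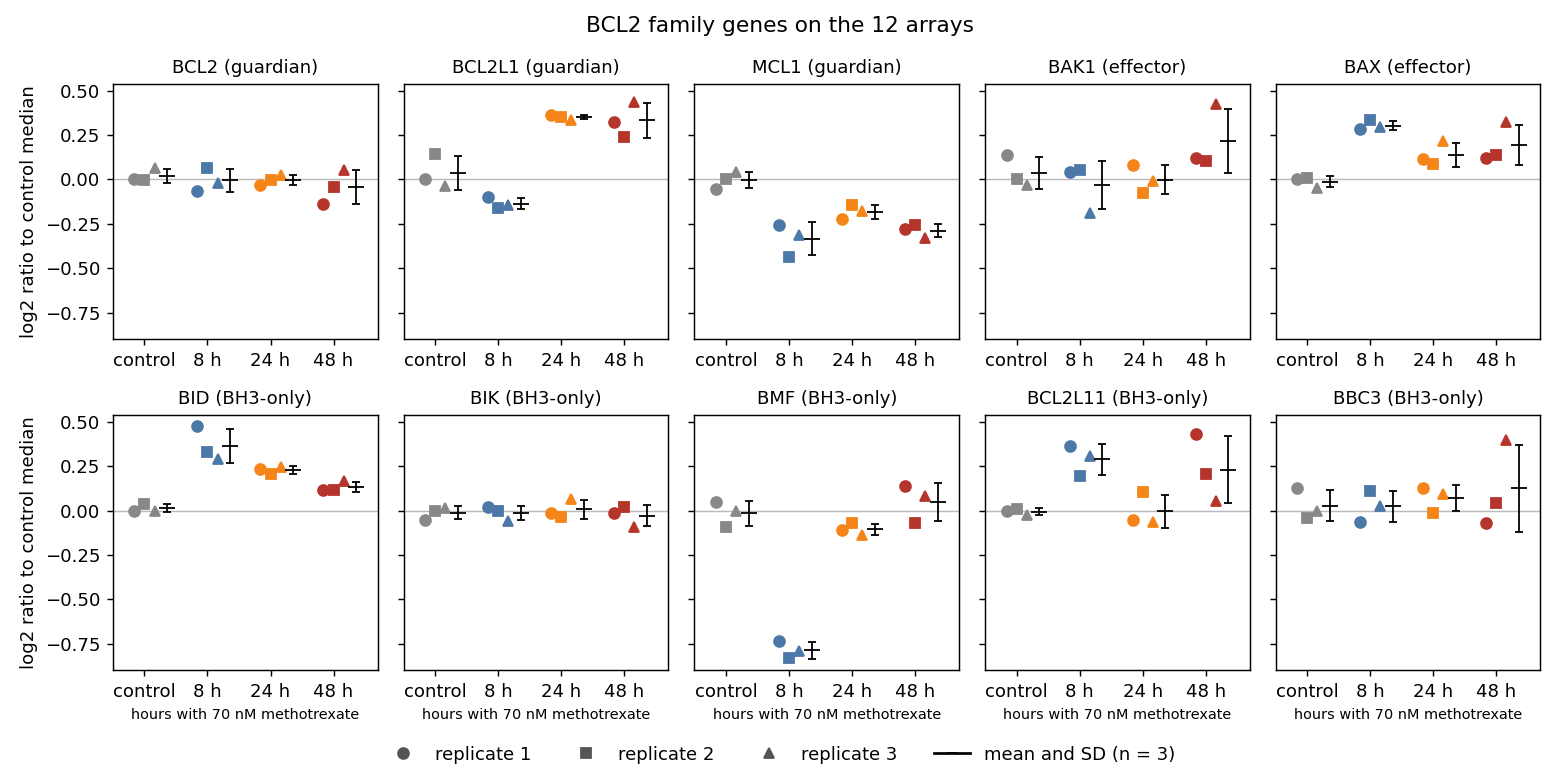
Each panel shows a BCL2 family gene, with the log2 ratio to the control median on the vertical axis and the control, 8, 24 and 48 h groups on the horizontal axis. Symbols are single arrays by replicate, and black bars are the mean and SD of 3. The 8 h arrays of BMF lie between -0.83 and -0.73, below every other array, while BIK and BCL2 stay near 0 in all groups.

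Of the guardians, MCL1 fell at every time and BCL2L1 rose at 24 and 48 h, while BCL2 did not pass the test at any time. MCL1 is a short-lived protein that the proteasome degrades. On the log2 ratio scale MCL1 read -0.05, 0.00 and 0.04 on the control arrays, -0.25, -0.44 and -0.31 at 8 h, -0.22, -0.15 and -0.18 at 24 h and -0.28, -0.26 and -0.33 at 48 h. All 9 treated arrays lay below all 3 control arrays. MCL1 fell 1.26-fold at 8 h (log2 fold change -0.33, SE 0.05, adjusted p = 0.000554 by limma, n = 3 per group) and 1.22-fold at 48 h (-0.28, SE 0.05, adjusted p = 0.00152). At 24 h it was 1.13-fold lower (-0.18, adjusted p = 0.0381), a call that did not hold when control replicate 2 or 3, 8 h replicate 3, 24 h replicate 1 or 3 or 48 h replicate 2 was left out (adjusted p = 0.0502 to 0.143). The 24 h arrays lay above the 8 h and the 48 h arrays, but no pair of treated groups differed past the threshold (adjusted p = 0.0678 for 24 h against 8 h, 0.275 for 48 h against 24 h and 0.634 for 48 h against 8 h). Without 8 h replicate 1 the step between 8 and 24 h was called (0.19, adjusted p = 0.0358).

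BCL2L1 encodes BCL-XL, the long anti-apoptotic product, and by alternative splicing also a short pro-apoptotic form, which a single probe set does not separate. Its control arrays read 0.00, 0.15 and -0.04, the 8 h arrays -0.10, -0.16 and -0.14, the 24 h arrays 0.36, 0.35 and 0.34 and the 48 h arrays 0.32, 0.24 and 0.43. The 24 and 48 h arrays lay above all control arrays, and the 8 h arrays below them. BCL2L1 rose 1.24-fold at 24 h (0.32, SE 0.06, adjusted p = 0.00253) and 1.23-fold at 48 h (0.30, SE 0.06, adjusted p = 0.00236). Without 48 h replicate 3 the 48 h value was 0.25 (adjusted p = 0.00757). At 8 h its value was -0.17 (SE 0.06, adjusted p = 0.0541). It became a call when control replicate 3 was left out (-0.21, adjusted p = 0.0401), and likewise for 48 h replicate 2 (0.0460) or 3 (0.0262). The rise at 24 h against 8 h was 1.401-fold (0.49, SE 0.06, adjusted p = 8.76e-05), and at 48 h against 8 h it was 1.38-fold (0.47, adjusted p = 4.87e-05). BCL2L1 at 48 h and at 24 h differed by -0.02 (95% interval -0.15 to 0.11, adjusted p = 0.927).

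BCL2, the founding guardian, stayed between -0.14 and 0.07 on all 12 arrays. Its log2 fold changes against control were -0.03, -0.02 and -0.07 at 8, 24 and 48 h (adjusted p = 0.819, 0.853 and 0.490). The 95% intervals of these reached from -0.19 to 0.10 over the 3 times. The 48 h value was -0.11 without 48 h replicate 3 (adjusted p = 0.173). With no level in the values, it is not known whether BCL2 was above background.

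**Figure D2:**
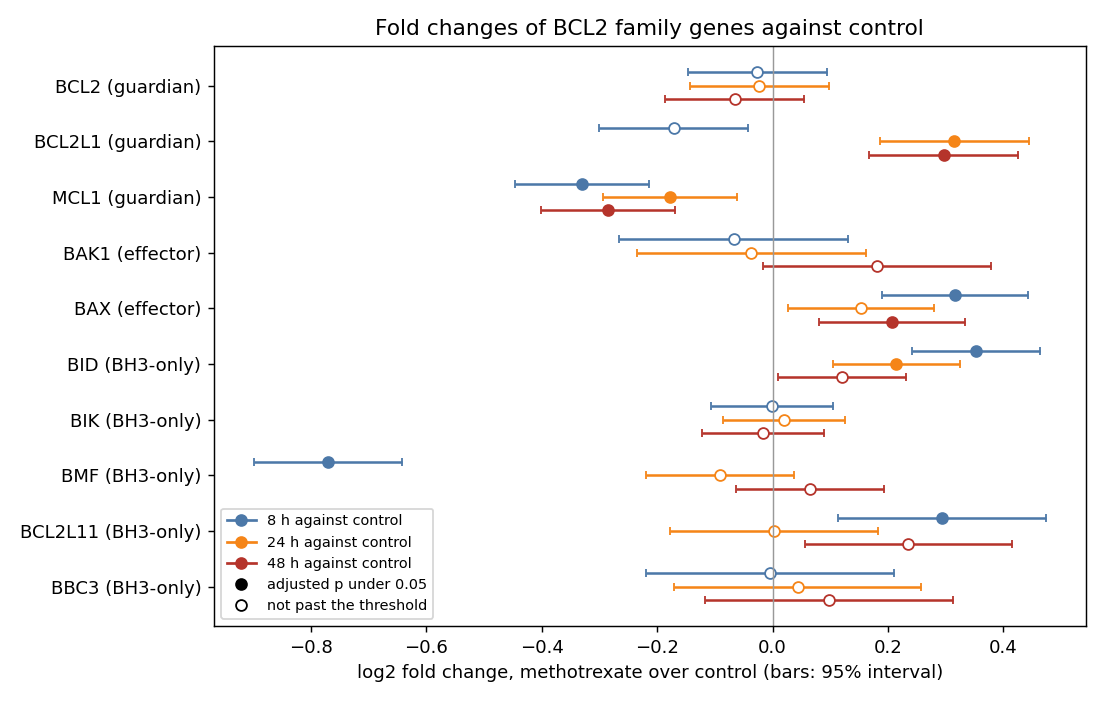
Log2 fold changes of the 10 genes for methotrexate over control at 8, 24 and 48 h, with 95% intervals that are not adjusted for multiple tests. Filled points passed an adjusted p under 0.05 and open points did not. MCL1 lies left of 0 at all 3 times, and BCL2L1 lies left of 0 at 8 h and right of 0 at 24 and 48 h.

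Of the effectors, BAX rose at 8 and 48 h and BAK1 did not change past the threshold at any time. BAX protein sits in the cytosol and moves to mitochondria once activated, while BAK is anchored there. BAX read 0.00, 0.01 and -0.05 on the control arrays, 0.28, 0.33 and 0.29 at 8 h, 0.12, 0.09 and 0.22 at 24 h and 0.12, 0.14 and 0.32 at 48 h. Every treated array was above every control array. At 8 h BAX rose 1.25-fold (0.32, SE 0.06, adjusted p = 0.00144). The 24 h value was 0.15 (SE 0.06, adjusted p = 0.0998), which passed the threshold without 48 h replicate 3 (0.0310).

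At 48 h BAX rose 1.16-fold (0.21, SE 0.06, adjusted p = 0.0186). The value was 0.14 without 48 h replicate 3 (adjusted p = 0.0627) and 0.19 without control replicate 3 (0.0625), and both lost the call. BAX at 24 h against 8 h differed by -0.16 (adjusted p = 0.0727), and at 48 h against 8 h by -0.11 (0.209). Without 48 h replicate 3 both differences from 8 h were called (adjusted p = 0.0202 and 0.0206). BAK1 varied more between replicates, with an SD of 0.13 within groups against a median of 0.083 over all genes. Its arrays ranged from -0.03 to 0.14 in control, -0.19 to 0.05 at 8 h, -0.08 to 0.08 at 24 h and 0.10 to 0.43 at 48 h. The 48 h value of BAK1 against control was 0.18 (SE 0.09, adjusted p = 0.190), and 0.08 without 48 h replicate 3, which held the highest reading. BAK1 at 48 h against 8 h was higher by 0.25 (adjusted p = 0.0586), a difference that was called without 48 h replicate 1 (0.0478) or 2 (0.0398) and at 0.14 without replicate 3, where it was not called.

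The BH3-only genes moved apart. At 8 h BID and BCL2L11 rose, BMF fell, and BIK and BBC3 did not pass the test (adjusted p = 0.993 and 0.987). BMF encodes a BH3-only protein that is held at the cytoskeleton through dynein light chain 2 and binds guardians when released. On the arrays BMF read 0.05, -0.09 and 0.00 in control, -0.73, -0.83 and -0.79 at 8 h, -0.11, -0.07 and -0.14 at 24 h and 0.14, -0.07 and 0.08 at 48 h. Only the 8 h arrays lay apart from control. BMF fell 1.71-fold at 8 h (-0.77, SE 0.06, adjusted p = 1.26e-06), and of the 10 genes it alone passed a 1.5-fold change against control at any time.

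By 24 h BMF was back near control (-0.09, SE 0.06, adjusted p = 0.376), and at 48 h it was at 0.065 (0.527). The rise at 24 h against 8 h was 1.60-fold (0.68, adjusted p = 6.59e-06), and at 48 h against 8 h it was 1.78-fold (0.84, adjusted p = 3.58e-07). BMF at 48 h against 24 h was higher by 0.16 (adjusted p = 0.131), and called only without 48 h replicate 2 (0.22, adjusted p = 0.0437) among the fits that left out an array.

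BID, which caspase-8 cleaves into a form that activates BAX and BAK, was highest at 8 h. It read 0.00, 0.04 and 0.00 in control, 0.47, 0.33 and 0.29 at 8 h, 0.23, 0.20 and 0.25 at 24 h and 0.12, 0.12 and 0.17 at 48 h. The 4 groups did not overlap on any pair of times. BID rose 1.28-fold at 8 h (0.35, SE 0.05, adjusted p = 0.000235) and 1.16-fold at 24 h (0.21, SE 0.05, adjusted p = 0.0110). At 48 h it was higher by 0.12 (adjusted p = 0.113). The fall at 48 h against 8 h was 1.17-fold (-0.23, SE 0.05, adjusted p = 0.00334), while neighbouring times differed by -0.14 (24 h against 8 h, adjusted p = 0.0842) and -0.09 (48 h against 24 h, 0.323).

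BCL2L11, which encodes BIM, a BH3-only protein that binds all the guardians, was high at 8 h, at control level at 24 h and spread widely at 48 h. Its control arrays read 0.00, 0.01 and -0.03, the 8 h arrays 0.36, 0.19 and 0.31, the 24 h arrays -0.05, 0.10 and -0.06 and the 48 h arrays 0.43, 0.20 and 0.06. The 8 h and 48 h arrays lay above all control arrays, and the 24 h arrays overlapped them. BCL2L11 rose 1.23-fold at 8 h (0.29, SE 0.08, adjusted p = 0.0200). That call was lost without any 1 of the control arrays or without 8 h replicate 1 or 3 (0.26 to 0.30, adjusted p = 0.0509 to 0.0751).

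At 24 h against 8 h BCL2L11 fell 1.22-fold (-0.29, adjusted p = 0.0248), a call lost without 8 h replicate 1 or 3 or 24 h replicate 1 or 3 (-0.28 to -0.25, adjusted p = 0.0787 to 0.0965). At 48 h it was higher than control by 0.24 (SE 0.08, adjusted p = 0.0551). Without 48 h replicate 3, the lowest of that group, the value was 0.32 (adjusted p = 0.00668), and without 24 h replicate 2 it passed the threshold as well (0.0494). So 3 of the 10 genes were called at 48 h against control both with and without 48 h replicate 3, but BAX was among them only with it and BCL2L11 only without it. At 48 h against 24 h BCL2L11 was higher by 0.23 (adjusted p = 0.104), and by 0.32 without 48 h replicate 3 (0.0156).

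BBC3 encodes PUMA, a strong BH3-only killer best known as a target of p53, and BIK a BH3-only protein of the endoplasmic reticulum. BBC3 read 0.13, -0.04 and 0.00 in control, -0.06, 0.11 and 0.03 at 8 h, 0.13, -0.01 and 0.10 at 24 h and -0.07, 0.05 and 0.40 at 48 h. A single array, 48 h replicate 3, stood above the others. At 48 h against control BBC3 differed by 0.10 (SE 0.10, 95% interval -0.12 to 0.31, adjusted p = 0.577), and by -0.04 without that array. BIK stayed between -0.09 and 0.07 on all 12 arrays, with log2 fold changes of -0.0011, 0.02 and -0.02 (95% intervals within -0.12 to 0.13).

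Between consecutive times, 3 of the 10 genes were called at 24 h against 8 h, BCL2L1 and BMF higher and BCL2L11 lower, against 19.4% of all genes (9.99% higher and 9.4% lower). At 48 h against 24 h limma called 0 of the 10, against 10.1% of all genes (5.26% higher and 4.86% lower). At an unadjusted p under 0.05 there were 3 (BAK1, BMF and BCL2L11), and the share of all genes at that threshold is not given. Without 48 h replicate 3 BAK1 went from 0.22 to 0.11, BMF from 0.16 to 0.14 and BCL2L11 from 0.23 to 0.32. At 48 h against 8 h 3 were called, BCL2L1 and BMF higher and BID lower, against 29.7% of all genes (15.3% higher and 14.4% lower). The 3 treated arrays did not overlap the 3 control arrays for 6, 4 and 5 of the 10 genes at 8, 24 and 48 h, against 37.9%, 33% and 35.7% of all genes. Between treated times the arrays did not overlap for 6 genes at 24 h against 8 h, 4 at 48 h against 24 h and 4 at 48 h against 8 h, where 33.3%, 24% and 37.8% of all genes did not. Quantile normalization between arrays ended the calls of BCL2L11 at 8 h (adjusted p = 0.1001) and at 24 h against 8 h (0.103), of MCL1 (0.147), BID (0.0818) and BCL2L1 (0.237) at 24 h, and of BCL2L1 (0.583) and BAX (0.156) at 48 h against control. This step stretched the control arrays, whose values had an SD of 0.0593 to 0.094 as deposited and 0.19 after it. The SD of the treated arrays was 0.193 to 0.281 as deposited.

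Averaged by role, the guardians read below all control arrays at 8 h, the effectors read above them at 48 h, and the BH3-only genes at 24 and 48 h. The 3 guardians averaged 0.02 ± 0.03 on control arrays, and the 8, 24 and 48 h arrays had -0.16 ± 0.02, 0.06 ± 0.02 and 0.00 ± 0.05 (SD, n = 3 arrays each). For the 2 effectors the means were 0.01 ± 0.05, 0.14 ± 0.07, 0.07 ± 0.06 and 0.21 ± 0.15 in the same order, and at 8 h they overlapped control. The 48 h effector mean was raised by replicate 3 (0.38), where replicates 1 and 2 both had 0.12. The 5 BH3-only genes averaged 0.00 ± 0.02, -0.02 ± 0.03, 0.04 ± 0.00 and 0.10 ± 0.03. At 24 h the lowest of their array means was 0.038, close to the highest control mean of 0.024. The median log2 fold change over all genes at 24 h was 0.016. Their mean at 8 h holds the fall of BMF and the rises of BID and BCL2L11, and at 24 h only BID of these genes was called (0.21). Likewise, the guardian means at 24 and 48 h hold the rise of BCL2L1 (0.32 and 0.30) and the fall of MCL1 (-0.18 and -0.28). Within an array, the effector mean minus the guardian mean was 0.21 to 0.37 at 8 h, -0.06 to 0.06 at 24 h and 0.14 to 0.32 at 48 h, against -0.06 to 0.09 in control. At 48 h the 0.32 was that of replicate 3, and replicates 1 and 2 had 0.15 and 0.14. The BH3-only mean minus the guardian mean was 0.11 to 0.15 at 8 h, -0.03 to 0.0005 at 24 h and 0.07 to 0.15 at 48 h, against -0.06 to 0.04 in control. These role means were not tested, and they weigh each gene equally whatever its abundance.

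**Figure D3:**
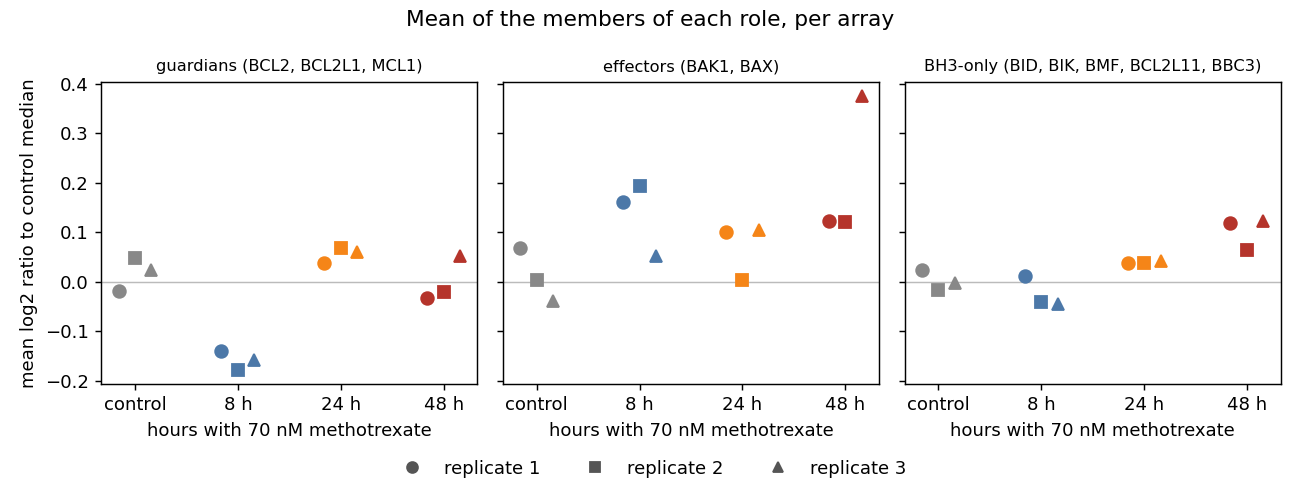
The mean log2 ratio of the guardian, effector and BH3-only genes is plotted for each array against group. Symbols are replicates. All 3 guardian means at 8 h lie between -0.18 and -0.14, below the control arrays, and 48 h replicate 3 has the highest effector mean, 0.38.

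Across the 12 arrays, the genes most like BMF by Pearson's r were PLEKHB1 (0.987), CYSTM1 (0.980) and ASS1 (0.979), and 214 of the 18376 other genes had r above 0.9. For BCL2L1 they were JUND (0.981), GRAMD1A (0.972) and NEU1 (0.969), with 146 genes above 0.9. For BID they were SLC2A1 (0.972), STEAP3 (0.968) and ABCB10 (0.967), with 105 above 0.9. Within the family the highest r was between BAX and BID (0.801) and the lowest between MCL1 and BAX (-0.895), while BMF and BCL2L1 had 0.733. These values describe 12 arrays in 4 groups, which all genes share.

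The medians of the 6 lists that follow are log2 fold changes over their measured genes, beside 0.02, 0.02 and 0.01 over all genes at 8, 24 and 48 h. The counts of called genes stand beside 24.2%, 16.7% and 25.3% of all genes called at these times. By direction these were 12.1% higher and 12% lower at 8 h, 8.69% and 8.02% at 24 h and 13% and 12.3% at 48 h. All are shares of the main fit, and none is given for the fits that left out an array. Some counts are near or below these shares, such as 2 of 13 other family members at 24 h and 1 of 7 in the inhibitor of apoptosis list at 48 h. Other members of the family, with 13 of 14 listed genes measured, were called in 5 cases at 8 h (1 higher, 4 lower), 2 at 24 h (both lower) and 7 at 48 h (4 higher, 3 lower). The list's median was -0.07, 0.02 and 0.00 in turn. PMAIP1 encodes NOXA, a BH3-only protein that binds MCL1, and it was the gene of this list with the largest change. It read 0.01, 0.00 and -0.11 in control, -0.76, -1.06 and -1.09 at 8 h, -0.54, -0.30 and -0.56 at 24 h and -0.50, -0.69 and -0.99 at 48 h, so that every treated array was below control. PMAIP1 fell by 0.94 at 8 h (SE 0.12, adjusted p = 7.26e-05) and by 0.69 at 48 h (0.000734). Its value at 24 h was -0.43 (adjusted p = 0.0225), a call lost without control replicate 1 or 2 or 24 h replicate 1 or 3 (0.0772 to 0.0947). BNIP3L, a mitophagy receptor, fell by 0.50 at 8 h (SE 0.07, adjusted p = 0.000120) and was at -0.0015 and 0.12 at 24 and 48 h, where it did not pass the test. BCL2L12 rose by 0.44 at 8 h (SE 0.08, adjusted p = 0.00155) and by 0.29 at 48 h (0.0181), the second of which needed both control replicate 1 (0.0674 without it) and 48 h replicate 3 (0.20, adjusted p = 0.0594). At 24 h BCL2L12 was at 0.19 (0.147), and called without 48 h replicate 3 (0.0498). BOK, an effector-like protein, rose by 0.39 at 48 h (SE 0.08, adjusted p = 0.00380). Without 48 h replicate 3 the counts higher and lower were 2 and 3 at 24 h and 2 and 4 at 48 h. Over all 12 fits that left out an array the count at 24 h ranged from 0 to 2 higher and 0 to 3 lower.

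Downstream of the mitochondrion, 11 of 13 apoptosome and caspase genes were measured, of which 5 were higher and 1 lower at 8 h, 2 higher and 3 lower at 24 h and 4 each way at 48 h. Their median was 0.09, 0.09 and -0.08 in turn. CYCS encodes cytochrome c, which BAX and BAK release to build the apoptosome. It read -0.11, 0.01 and 0.00 in control, 0.20, 0.19 and 0.21 at 8 h, -0.20, -0.22 and -0.43 at 24 h and -0.63, -0.40 and -0.66 at 48 h. The 8 h arrays were above control, and the later ones below it. CYCS fell by 0.53 at 48 h (SE 0.08, adjusted p = 0.000191). Its calls at 8 h (0.23, adjusted p = 0.0386) and at 24 h (-0.25, 0.0396) were weaker. Removing any control or 8 h array ended the first (0.0637 to 0.147), and the second was lost without control replicate 2 or 3, any 8 h array or 24 h replicate 3 (0.0505 to 0.185). AIFM1, a flavoprotein of the mitochondrial intermembrane space, fell by 0.22 at 24 h (SE 0.05, adjusted p = 0.00647) and by 0.40 at 48 h (3.89e-05). Its rise of 0.14 at 8 h (0.0432) was lost in 9 of the 12 fits that left out an array, among them each without a control or 8 h array (0.0544 to 0.129 over the 9).

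HTRA2, a serine protease released with cytochrome c, rose by 0.22, 0.34 and 0.37 at 8, 24 and 48 h (SE 0.05, adjusted p = 0.00656, 0.000456 and 0.000130), the first of which was lost under quantile normalization (0.0748). DFFB, the nuclease that cuts DNA in apoptosis, rose by 0.41 at 8 h (SE 0.08, adjusted p = 0.00192). DFFB was at -0.255 at 24 h (adjusted p = 0.0410) and at -0.26 at 48 h (0.0270). Those 2 calls were lost without any 1 control array, and at 24 h also without 8 h replicate 2 or 3, 24 h replicate 1 or 2 or 48 h replicate 2 (0.0526 to 0.153). The 48 h call was also lost without replicate 1 or 2 of that group (0.0551 to 0.106). In the fits that left out an array, this list had 3 to 5 higher and 0 to 1 lower at 8 h, 1 to 2 and 1 to 3 at 24 h, and 2 to 4 each way at 48 h.

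The list of inhibitor of apoptosis genes, which also holds XAF1, had 7 of 8 genes measured. Of these 7, 3 were lower at 8 h, 2 at 24 h and 1 at 48 h, and 0 were higher at any time. When an array was left out, 1 to 4 were lower at 8 h, 1 to 3 at 24 h and 0 to 1 at 48 h, and 0 to 1 were higher at 48 h. The list's median was -0.20, -0.22 and -0.01 in turn. XAF1, an interferon-induced antagonist of XIAP, had the largest change of all lists and is not itself an inhibitor of caspases. It is counted among the lower genes at each time, and at 48 h it was the only one. The others were XIAP and BIRC2 at 8 h and BIRC6 at 24 h. XAF1 fell at every time, with log2 fold changes of -2.57 at 8 h (SE 0.13, adjusted p = 4.04e-08), -1.61 at 24 h (2.99e-06) and -0.51 at 48 h (0.0127). The last call was lost without control replicate 2 (-0.41, adjusted p = 0.0658) and under quantile normalization (-0.47, 0.0970). XIAP, which blocks caspases directly, was at -0.38 at 8 h (SE 0.12, adjusted p = 0.0331), and BIRC2, an ubiquitin ligase of the tumour necrosis factor receptor complex, at -0.34 (0.0267). Both calls were lost without control replicate 1 or 2 or 8 h replicate 2 or 3 (adjusted p = 0.0946 to 0.140). Under quantile normalization both were lost too (adjusted p = 0.388 for XIAP and 0.325 for BIRC2). BIRC6 was lower at 24 h (-0.35, adjusted p = 0.0238), though not past the threshold once control replicate 1 or 2 or 24 h replicate 1 or 3 was removed (0.0576 to 0.111).

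The death receptor route reaches this family through BID. Of its 13 measured genes (15 listed), 3 rose and 4 fell at 8 h, 5 rose and 2 fell at 24 h, and 4 rose and 1 fell at 48 h. The list's median was 0.06, 0.01 and 0.09 in turn. TNFSF10, the ligand TRAIL and an interferon-stimulated gene, fell by 1.45 at 8 h (SE 0.10, adjusted p = 3.87e-07) and by 0.60 at 24 h (0.000833), and was at -0.06 at 48 h (0.778). CFLAR, which keeps caspase-8 from cleaving BID, fell by 0.70 at 8 h (SE 0.10, adjusted p = 0.000223). At 24 h CFLAR was at -0.23 (0.152), called without 24 h replicate 2 (-0.33, adjusted p = 0.0397), and at 48 h at 0.09 (0.623). TNFRSF10D, a decoy receptor for TRAIL, rose by 0.29 at 24 h (SE 0.05, adjusted p = 0.00217) and by 0.65 at 48 h (1.86e-06). The adaptor TRADD rose by 0.46 at both 24 h and 48 h (SE 0.08, adjusted p = 0.00148 and 0.000978). Without 48 h replicate 3, 6 genes of this list were higher at 48 h. Quantile normalization ended the calls of TRADD at 24 h (adjusted p = 0.0519) and 48 h (0.123) and of TNFRSF10D at 24 h (0.0908).

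Among 14 measured partners of the family and genes of its protein turnover (15 listed), 6 rose and 0 fell at 8 h. They were the channel genes VDAC1, VDAC2 and VDAC3, BCAP31 of the endoplasmic reticulum, the MCL1 ubiquitin ligase HUWE1 and DYNLL2, the dynein light chain that holds BMF. VDAC3 rose by 0.26 (SE 0.06, adjusted p = 0.00460) and BCAP31 by 0.30 (0.0122, and 0.0598 without 8 h replicate 2), and both calls were lost under quantile normalization (0.18 and 0.23, adjusted p = 0.192 and 0.0867). This count was 3 to 6 when an array was left out. At 24 h 0 rose and 1 fell, and at 48 h 1 rose and 1 fell. Without 48 h replicate 3 these counts were 1 and 2 at 24 h and 2 and 1 at 48 h. The list's median was 0.14, -0.05 and -0.04 in turn. TPT1, a translationally controlled protein reported to stabilise MCL1, fell by 0.29 and 0.35 at these times (SE 0.05, adjusted p = 0.00110 and 0.000132). BTRC, a ubiquitin ligase subunit, was higher at 48 h (0.37, adjusted p = 0.0157), but not when control replicate 3 (0.25, adjusted p = 0.0652) or 48 h replicate 1 (0.0572) was removed.

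Of 12 measured transcription factors that act on BCL2 family genes (14 listed), 2 rose and 1 fell at 8 h, 3 rose and 2 fell at 24 h, and 5 rose and 2 fell at 48 h. The list's median was 0.12, 0.11 and 0.16 in turn. DDIT3 encodes CHOP, which induces BCL2L11 and BBC3 under endoplasmic reticulum stress. DDIT3 fell by 1.44, 0.63 and 0.93 at 8, 24 and 48 h (SE 0.07, adjusted p = 4.04e-08, 6.93e-05 and 1.38e-06). E2F1, a driver of the G1/S programme, rose by 0.50, 0.65 and 0.67 (SE 0.05, adjusted p = 2.30e-05, 3.73e-06 and 1.63e-06). TP73, a relative of p53, rose by 0.40, 0.31 and 0.36 (SE 0.06, adjusted p = 0.000349, 0.00399 and 0.000781). MYC was at 0.07 at 8 h (0.487), and fell by 0.42 at 24 h (SE 0.06, adjusted p = 0.000263) and by 0.63 at 48 h (4.96e-06). The link of these factors to the 10 genes was not tested.

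**Figure D4:**
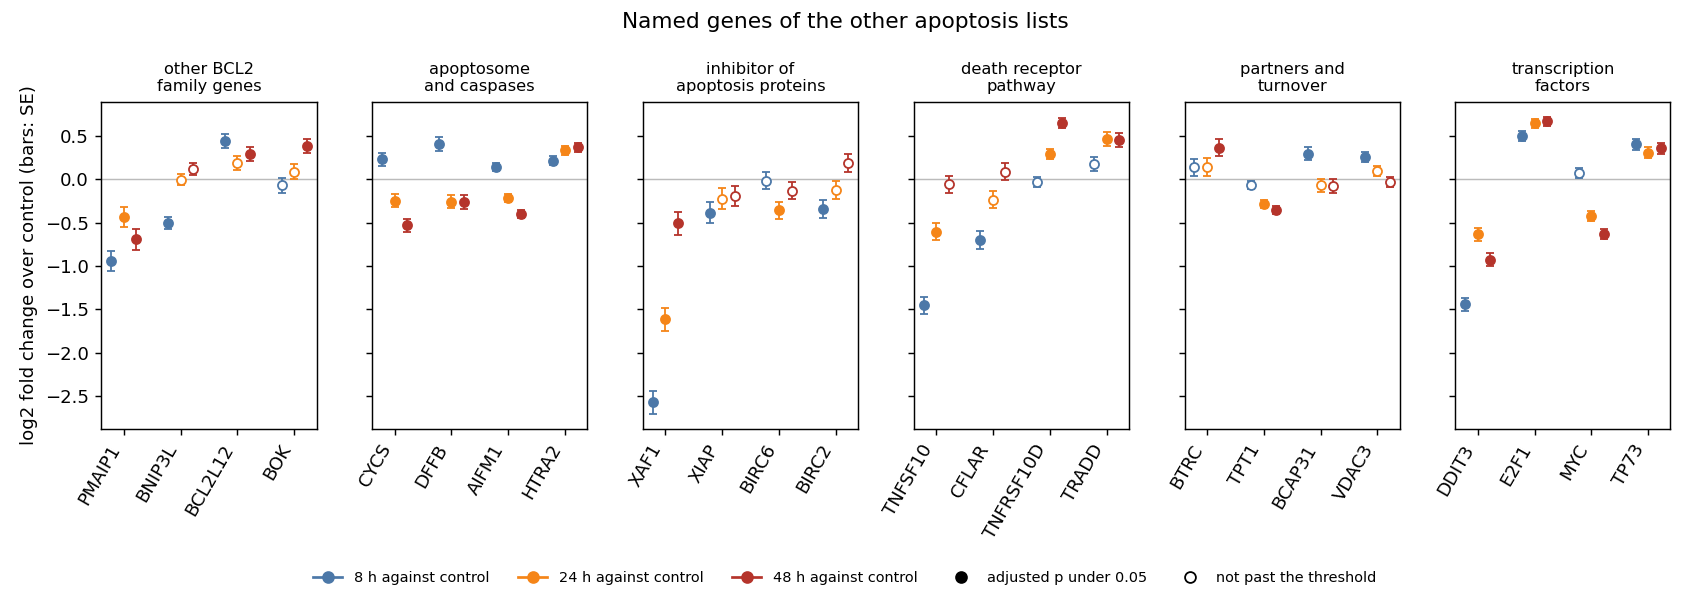
Log2 fold changes over control with SE are plotted for the named genes of 6 other apoptosis lists at 8, 24 and 48 h. Filled points passed an adjusted p under 0.05 and open points did not. XAF1 has the lowest value of the panels, -2.57 at 8 h, and HTRA2, E2F1 and TP73 lie above 0 at all 3 times.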

How the data were processed

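Gene expression was measured in HT29 cells on 12 Affymetrix human gene arrays, 3 for each of 4 groups, which were taken from the sample titles. The submitters' processing notes name RMA and the build hg19, without versions. The values as deposited are log2 values. All 28869 probe sets have a median of 0 over the 3 control arrays, which makes every value a log2 ratio to that median, a step not given in the sources used here. Levels are lost, and no filter on dim probe sets was possible. The number of arrays limits the precision.

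Of the probe sets 19310 had 1 gene symbol in the platform annotation, 1752 had several and 7807 had none there. Probe sets of a gene were averaged, which gave 18377 genes. Probe sets of several genes were left out, and 0 of them named 1 of the 10 genes. A single limma 3.58.1 model (R 4.3.3) with a mean per group was fitted to all 12 arrays, with 8 residual and 4.71 prior degrees of freedom. The 6 differences between groups and a moderated F test over the 4 groups used two-sided tests. Calls needed an adjusted p under 0.05, by Benjamini-Hochberg across the genes. The error of a fold change is limma's moderated SE. The script was tested on simulated data. Promoter windows are RefSeq's in GRCh38.p14.

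The members, the lists and the tests were chosen with earlier results of these data known. All 10 members are named. From each other list up to 4 called genes with the largest change against control are named, or the 2 with the smallest p. For the 3 members with the largest F, the 3 genes with the highest r are named. VDAC1, VDAC2, HUWE1, DYNLL2, EPCAM and VIL1 were named after their values were seen. Alternatives were array weights, a block for the replicate number, each array centred on its median, quantile normalization, a robust prior, a fit to the arrays of 2 groups alone, unaveraged probe sets, genes with a single probe set, an adjusted p under 0.01, a change of at least 1.5-fold and each array left out. Figures were drawn with Python 3.11.15 and matplotlib 3.10.9.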

Additional observations from a re-analysis of the deposited data

Results flagged for a closer look

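Treated groups of different times differed for 6 pairs of a gene and a comparison, each tested as the difference between those groups (limma, Benjamini-Hochberg adjusted p over all genes, 3 arrays per group). They were 3 of the 10 genes at 24 h against 8 h, where 19.4% of all genes were called. At 48 h against 24 h 0 of the 10 were called, against 10.1% of all genes. At 48 h against 8 h 3 of the 10 were, near the 29.7% of all genes. BMF was higher at 24 h than at 8 h by 0.68 (adjusted p = 6.59e-06) and at 48 h than at 8 h by 0.84 (3.58e-07), with all later arrays above all 8 h arrays. BCL2L1 was higher at 24 h than at 8 h by 0.49 (adjusted p = 8.76e-05) and at 48 h than at 8 h by 0.47 (4.87e-05), also with no overlap. BCL2L11 at 24 h against 8 h had a difference of -0.29 (adjusted p = 0.0248), a call that rested on single arrays as given above. BID at 48 h against 8 h had a difference of -0.23 (adjusted p = 0.00334). Groups of 3 arrays were not tested for outlying arrays.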

How the results depend on the processing

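Under the 22 alternatives, 1249 of 1320 recomputed member results kept their side of the threshold, 45 lost the call and 26 gained it. Most of the 1320 were not calls in the main fit, and only calls could be lost. That fit called 5, 3 and 3 of the 10 genes against control and 3, 0 and 3 between times. With 1 probe set per member, the 2 alternatives on probe sets left its fold changes as they were. The sign changed in 48 of the 1320, and 0 of these were called in either fit (absolute log2 fold changes up to 0.10). Of 1968 recomputed results of named list genes, 135 lost the call, 38 of them to the 1.5-fold limit and 17 to quantile normalization, and 17 gained it. The sign changed in 14, of which 0 were called in either fit. The counts of called members that follow stand without the share of all genes called in the same fit. They are therefore no result about the 10 genes as a set. With a change of at least 1.5-fold, the called members at 8, 24 and 48 h against control numbered 1, 0 and 0. With an adjusted p under 0.01, 1 was called at 24 h. Quantile normalization left 0 at 24 h and 1 at 48 h, with BCL2L1 at 0.22 (adjusted p = 0.237) and 0.13 (0.583). It gives control and treated arrays 1 distribution by construction. This widened the control arrays, and BCL2L1 on control replicate 2 went from 0.15 to 0.43. Whether calls were lost to this widening was not tested. Array weights gave 5 at 48 h against control, 5 at 24 h against 8 h, 2 at 48 h against 24 h and 5 at 48 h against 8 h. The weight of 48 h replicate 2 was 6.52, against 0.797 and 0.199 for replicates 1 and 3. The weighted 48 h mean therefore rests largely on 1 array. At 1.5-fold, 24 h against 8 h and 48 h against 8 h had 1 call each. Leaving out each array gave 4 to 6 at 8 h, 2 to 4 at 24 h, 2 to 4 at 48 h, 2 to 4 at 24 h against 8 h, 0 to 1 at 48 h against 24 h, 3 to 4 at 48 h against 8 h and 6 among the 4 groups. The BH3-only mean at 24 h was 0.033 with each array centred on its median, against 0.04. With the replicate number as a block the counts were 5, 2 and 4 against control, 3, 0 and 3 between times and 6 among the 4 groups. MCL1 at 24 h then lost its call (adjusted p = 0.0534) and BCL2L11 at 48 h gained one (0.0438). The numbers share no stated source, so they were not taken to pair the samples. Of 18 same-number pairs of arrays 11 correlated above 0.1 (-0.452 to 0.472). Those of replicate 3 ran from 0.024 to 0.458, while those of replicates 1 and 2 had both signs. Whether the samples were paired was not tested. The causes were not tested. Dim probe sets could not be told from bright ones.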
